A study of Mus musculus with 2 samples.

Results

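The regions described here are the p53 peaks at 6 Wnt ligand genes of the mouse: Wnt3, Wnt9b, Wnt3a, Wnt9a, Wnt8a and Wnt8b. They were taken from a list of 92924 peaks (build mm9) by position alone. A peak was a member if its midpoint lay in 1 of 4 windows: 103.56 to 103.71 Mb of chromosome 11 for Wnt3 and Wnt9b, 59.03 to 59.17 Mb of chromosome 11 for Wnt3a and Wnt9a, 34.67 to 34.74 Mb of chromosome 18 for Wnt8a, and 44.54 to 44.62 Mb of chromosome 19 for Wnt8b. The windows span 440 kb and held 63 peaks, or 0.0678% of the list: 20 at Wnt3-Wnt9b, 22 at Wnt3a-Wnt9a, 9 at Wnt8a and 12 at Wnt8b.

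The transcription factor p53 recognises specific DNA sequences, and the ubiquitin ligase Mdm2 keeps its level low. Nutlin occupies the pocket by which Mdm2 holds p53, so that p53 accumulates. The list came from mouse embryonic stem cells of a mixed C57BL/6 and 129Sv background, grown with leukemia inhibitory factor, exposed to Nutlin for 8 hours and fixed. Chromatin immunoprecipitated with the p53 antibody M-19 (1 library) was compared with input chromatin (1 library), and both came from treated cells. The Nutlin dose is given as 20 in µM in one place and as 20 in mM in another. Untreated cells were not analysed here, so the values describe treated cells and not a change on treatment. With 1 library a group, no value has an error between cultures and no test between conditions was possible.

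Wnt proteins are secreted, lipid-modified ligands. They bind Frizzled receptors with Lrp co-receptors on the receiving cell, and in the canonical branch of the pathway this stabilises β-catenin, which then acts with Tcf and Lef factors on target genes. In embryonic stem cells canonical Wnt signalling is known to favour self-renewal, and earlier published work on mouse embryonic stem cells linked p53 to the expression of several Wnt ligand genes. Wnt3 is required for formation of the primitive streak, and Wnt3a for the mesoderm of the trunk and tail. Wnt9b acts in formation of the kidney tubules and Wnt9a in the joints. Wnt8a is expressed in the early embryo around gastrulation and Wnt8b in the developing forebrain.

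Of the 6 ligand genes, 4 lie in paralogous pairs of neighbours and share windows. In the RefSeq gene table for GRCm38, used here for gene order only, Wnt9b and Wnt3 are direct neighbours between Gosr2 and Nsf. Wnt3a and Wnt9a are direct neighbours between Arf1 and Prss38. Wnt8a lies between Fam13b and Nme5, and Wnt8b between Scd1 and Sec31b. Gene positions on mm9 were not used, so a peak is placed in a window and not at a promoter, exon or intron, and a peak in a shared window is not assigned to one ligand or to a neighbouring gene. For the same reason the receptors, β-catenin partners and inhibitors of the pathway were not analysed here.

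The promoters of 3 ligands, 1 from each of the windows for which RefSeq (GRCm38.p6) gave a sequence, are shown because they differ in base composition. Each line gives the 250 bases before the transcription start, 5′ to 3′ on the gene's strand, and capitals mark the 4-letter cores found inside the decamer motif of p53, which may read CATG on either strand, or else CAAG on one strand with its complement CTTG on the other, or else CTAG on either. The Wnt3a sequence is chr11:59290752-59291001 on the minus strand, the Wnt3 sequence chr11:103773925-103774174 on the plus strand and the Wnt8b sequence chr19:44493222-44493471 on the plus strand.
Wnt3a: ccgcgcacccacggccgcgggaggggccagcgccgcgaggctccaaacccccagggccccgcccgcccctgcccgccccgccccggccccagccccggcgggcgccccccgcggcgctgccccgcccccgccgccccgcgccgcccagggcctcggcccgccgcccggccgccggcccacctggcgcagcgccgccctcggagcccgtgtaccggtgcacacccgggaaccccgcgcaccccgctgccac
Wnt3: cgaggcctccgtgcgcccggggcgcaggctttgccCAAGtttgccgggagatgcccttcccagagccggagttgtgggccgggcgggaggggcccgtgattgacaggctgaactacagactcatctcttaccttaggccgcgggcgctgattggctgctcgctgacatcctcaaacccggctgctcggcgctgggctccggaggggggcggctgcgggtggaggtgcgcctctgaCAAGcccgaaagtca
Wnt8b: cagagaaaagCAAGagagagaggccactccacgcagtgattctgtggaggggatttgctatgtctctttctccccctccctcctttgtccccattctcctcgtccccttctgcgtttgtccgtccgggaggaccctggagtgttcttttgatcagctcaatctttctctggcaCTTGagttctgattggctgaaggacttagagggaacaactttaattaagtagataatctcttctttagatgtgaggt

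These GRCm38 positions are not comparable with the mm9 positions of the peaks, so the sequences describe the genes and not the peaks. Promoters were matched for 5 of the 6 ligands, all but Wnt8a. The upstream bases of Wnt3a were 87.6% G or C and held 41 CG pairs, and those of its neighbour Wnt9a were 84.4% G or C with 48 CG pairs. Wnt9b and Wnt3 each had 22 CG pairs, at 72% and 68% G or C. Wnt8b had 48.4% G or C and 5 CG pairs, near the medians of all 32851 promoters (52.4% and 6). The cores occurred 2 times each in Wnt3 and Wnt8b and 0 times in Wnt3a, Wnt9a and Wnt9b, whereas 96.5% of all promoters held at least 1. That share covers promoters of every composition. Promoters as rich in G or C as Wnt3a, Wnt9a and Wnt9b were not compared separately. Neither the p53 decamer motif nor a pair of CATG cores spaced as in adjoining decamers was found on either strand in any of the 5 promoters. Of all promoters, 7.13% held the decamer and 0.490% held the pair of cores. These matches are a description of letters in short stretches beside the start sites only.

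Peaks at the Wnt windows were mostly weak, and the few strong ones lay at Wnt3a-Wnt9a and Wnt8a. The score of a peak is the authors' own, from their peak caller. It has a minimum of 50 and grows with both enrichment and read depth. Scores of the 63 members ran from 50.16 to 3100 with a median of 94.6, against a median of 87.5 in the whole list. A score of 1000 or more was given to 4 members, 3 at Wnt3a-Wnt9a and 1 at Wnt8a, which is 6.35% of the members (exact Clopper-Pearson 95% interval 1.76% to 15.5%) beside 5.77% of the whole list. A score of 100 or more was given to 29 members, or 46.0% (33.4% to 59.1%), beside 43.0% of the whole list. Both shares of the list lie inside the intervals of the members. By these shares the windows as a set were not distinguishable from the list. The intervals treat peaks as independent, which close peaks are not.

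**Figure D1:**
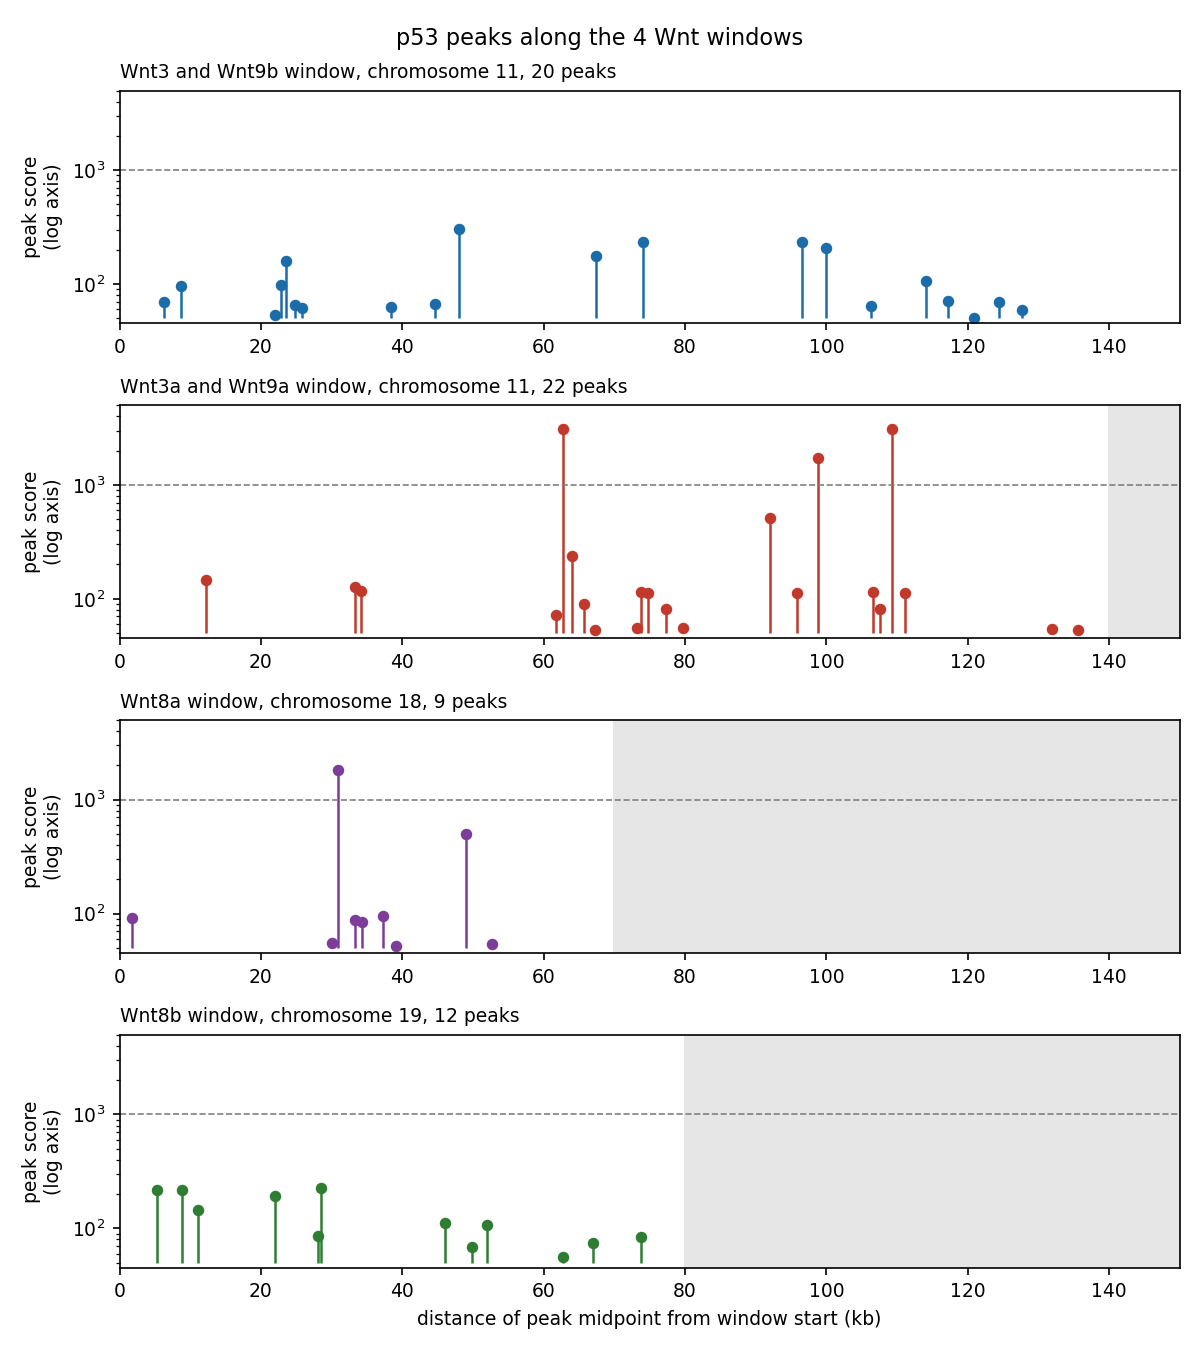
Score of each p53 peak (log axis) against the distance of its midpoint from the window start in kb, for the 4 Wnt windows; grey areas lie outside a window and the dashed line marks a score of 1000. The 3 strong peaks at Wnt3a-Wnt9a and the single one at Wnt8a rise above the line, and the 20 peaks at Wnt3-Wnt9b and the 12 at Wnt8b stay below 304.

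At Wnt3a-Wnt9a, 2 of the 22 peaks had a score of exactly 3100. The first lay at 59092304 to 59093044 of chromosome 11 (741 bases wide) and the second at 59138959 to 59139730 (772 bases). Scores of 3100 or more were given to 118 of the 7267 peaks of chromosome 11 (1.62%). At scores of 3000 or more, the same 2 peaks made up 9.09% of the window (exact 95% interval 1.12% to 29.2%). The rest of chromosome 11 had 1.68%, a share inside that interval. The value 3100 was given to 1390 peaks of the list, so it may not rank these 2 peaks exactly. Another strong peak, at 59128353 to 59129233 (881 bases), scored 1715.22 and a moderate one, at 59121685 to 59122262 (578 bases), scored 510.62. The remaining 18 peaks of the window scored from 53.41 (59165383 to 59165793) to 238.12. No peak of the window lay between 238.12 and 510.62, between 510.62 and 1715.22, or between 1715.22 and 3100. These steps in score were not compared with those of other windows.

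The strong Wnt3a-Wnt9a peaks lay in the middle and later parts of the window. Their midpoints were 62.7, 98.8 and 109.3 kb from its start. The peak of score 1715.22 was 36.1 kb from the first and 10.6 kb from the second peak of score 3100. On chromosome 11 as a whole the median distance from a peak of score 1000 or more to the nearest other was 68.9 kb (quartiles 23.8 and 140.0 kb, 405 peaks), and 14.3% of them had another as close as 10.6 kb. The next such peak beyond the window, of score 1524.13, lay 54.0 kb after the last of the 3. Peaks of score 1000 or more made up 13.6% of the 22 peaks (exact 95% interval 2.91% to 34.9%), beside 5.57% on chromosome 11, a background inside that interval.

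Weak peaks lay beside the strong ones at this locus. The first peak of score 3100 was preceded at 231 bases by a peak of score 72.68 and followed at 749 bases by one of score 238.12. Together these 3 peaks covered 1919 of 2899 bases. The second had its neighbours at 1092 bases (score 80.87) and 1199 bases (score 112.20). The nearest peak to that of score 1715.22 was 2255 bases away and scored 112.38. Another peak within 1 kb was found for 38.3% of the 405 peaks of score 1000 or more on chromosome 11 and for 28.0% of its weaker peaks, so 1 of 3 at this locus is not unusual for the chromosome. Both peaks of score 3100 were narrow for their class: of the 111 peaks with this score on chromosome 11, 14 were narrower than the first and 17 narrower than the second, and the median was 1037 bases.

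Wnt3-Wnt9b, the window of the paralogous pair on the same chromosome, held nearly as many peaks but none that was strong. Its highest score was 303.89, for a peak of 1162 bases at 103607468 to 103608629, which was also the widest of the 63 members. It was followed by 233.60 (974 bases, 103656026 to 103656999), 231.44 (668 bases, 103633660 to 103634327) and 208.39 (575 bases, 103659660 to 103660234). A score of 303.89 or more was given to 1019 peaks of chromosome 11, so the strongest peak here stood above 86.0% of the chromosome. The other 16 peaks scored from 50.16 to 175.72. The lowest of all members, 50.16 at 103680643 to 103681140, lay in this window and was just above the caller's minimum. No peak reached 1000 (0 of 20, exact 95% interval 0% to 16.8%, beside 5.57% on chromosome 11).

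Whether the paralogous windows differ in their shares of strong peaks was not tested. Scores of 200 or more were given to 4 of 20 peaks at Wnt3-Wnt9b (20%) and 5 of 22 at Wnt3a-Wnt9a (22.7%). Scores of 500 or more were given to 0 of 20 peaks at Wnt3-Wnt9b (exact 95% interval 0% to 16.8%) and to 4 of 22 at Wnt3a-Wnt9a (18.2%, 5.19% to 40.3%), beside 9.72% on chromosome 11. These intervals overlap, but each describes its own window, and an overlap is not a comparison of the shares. The median score was 70.4 at Wnt3-Wnt9b (quartiles 63.9 and 163) and 112 at Wnt3a-Wnt9a (74.7 and 142), beside 86.3 for the rest of chromosome 11 without the first window. Scores of 100 or more were given to 7 of 20 peaks (35.0%, 15.4% to 59.2%) and 13 of 22 peaks (59.1%, 36.4% to 79.3%), beside 41.4% on the chromosome. The quartile ranges of the windows overlap and both intervals hold the value of the chromosome.

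Windows with as few strong peaks as Wnt3-Wnt9b are common on chromosome 11. When the chromosome was divided into windows of 150 kb, each starting 75 kb after the last, 65.4% of 1582 held no peak of score 1000 or more. Among the 207 of these windows with at least 20 peaks, 50 held none (24.2%). Windows with as many strong peaks as Wnt3a-Wnt9a were fewer: 2.95% of 1696 windows of 140 kb held 3 or more peaks of score 1000 or more, and 30 of the 136 with at least 22 peaks did (22.1%). Neighbouring windows overlap, so these shares are a description of the chromosome and not a test.

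At Wnt8a, 1 peak was strong and 1 was sharp. The strong peak, at 34700441 to 34701311 of chromosome 18 (871 bases), scored 1811.69, a score that 83 of the 2824 peaks of the chromosome reached. It was 1 of 9 peaks (11.1%, exact 95% interval 0.281% to 48.2%), beside 5.59% on chromosome 18. The sharp one, at 34718896 to 34719239, scored 497.05 at a width of only 344 bases. Of the 106 peaks on chromosome 18 with scores from 400 to 600, 4 were narrower, and their median width was 627.5 bases. The other 7 peaks scored from 51.60 (34708833 to 34709267) to 94.60, so no peak of the window lay between 94.60 and 497.05.

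The strong Wnt8a peak was the second of a tight run of 6. A peak of score 55.61 ended 153 bases before it, and 4 more peaks followed, with scores of 88.17, 83.82, 94.60 and 51.60. These 6 peaks lay within 9.31 kb, each at most 5 kb from the next. On chromosome 18, 4.18% of peaks belonged to a run of 6 or more joined in this way. A still stronger peak lay just outside the window: at 34663462 to 34664129 (668 bases) it scored 2398.83, with its midpoint 6.21 kb before the window start and 37.1 kb from that of the strong member. The nearest peak inside that edge scored 92.05. The number of strong peaks at Wnt8a therefore depends on where the window was set to begin.

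Wnt8b had no strong peak, and its scores ran over a narrower range, from lowest to highest, than those of the other windows. Its 12 peaks scored from 55.99 to 224.07 with a median of 109 (quartiles 81.5 and 198), beside 87.6 for the rest of chromosome 19. These quartiles lay further apart than at Wnt3-Wnt9b (63.9 and 163), Wnt3a-Wnt9a (74.7 and 142) and Wnt8a (55.6 and 94.6). The Wnt8b scores were therefore not the most alike by this measure. The highest 3 at Wnt8b were 224.07 (44568331 to 44568799, 469 bases), 218.77 (44545007 to 44545518, 512 bases) and 216.98 (44548621 to 44549191, 571 bases). These were close to one another in score, and 527 of the 2632 peaks of chromosome 19 scored 224.07 or more. The lowest, 55.99, was at 44602520 to 44602882. Scores of 100 or more were given to 7 of 12 peaks (58.3%, 27.7% to 84.8%), beside 43.6% on chromosome 19, and of 1000 or more to none (0 of 12, 0% to 26.5%, beside 5.55%). The peak of score 191.15 and the highest 3 all lay before the widest gap of the window, and none of the 6 peaks beyond that gap scored above 112.09.

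Peak widths in the windows were close to those of the rest of their chromosomes. The median width was 578.5 bases at Wnt3-Wnt9b (quartiles 463 and 648), 570 at Wnt3a-Wnt9a (416 and 685), 491 at Wnt8a (420 and 554) and 478.5 at Wnt8b (447 and 517). The rest of the chromosomes had medians of 524 bases (chromosome 11), 494 (chromosome 18) and 512 (chromosome 19), each inside the quartiles of its windows. The narrowest member, of 297 bases, lay at Wnt3a-Wnt9a (59161754 to 59162050) and scored 54.03. Wide peaks were not always strong: the widest at Wnt8b, of 917 bases (44585590 to 44586506), scored only 112.09.

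**Figure D2:**
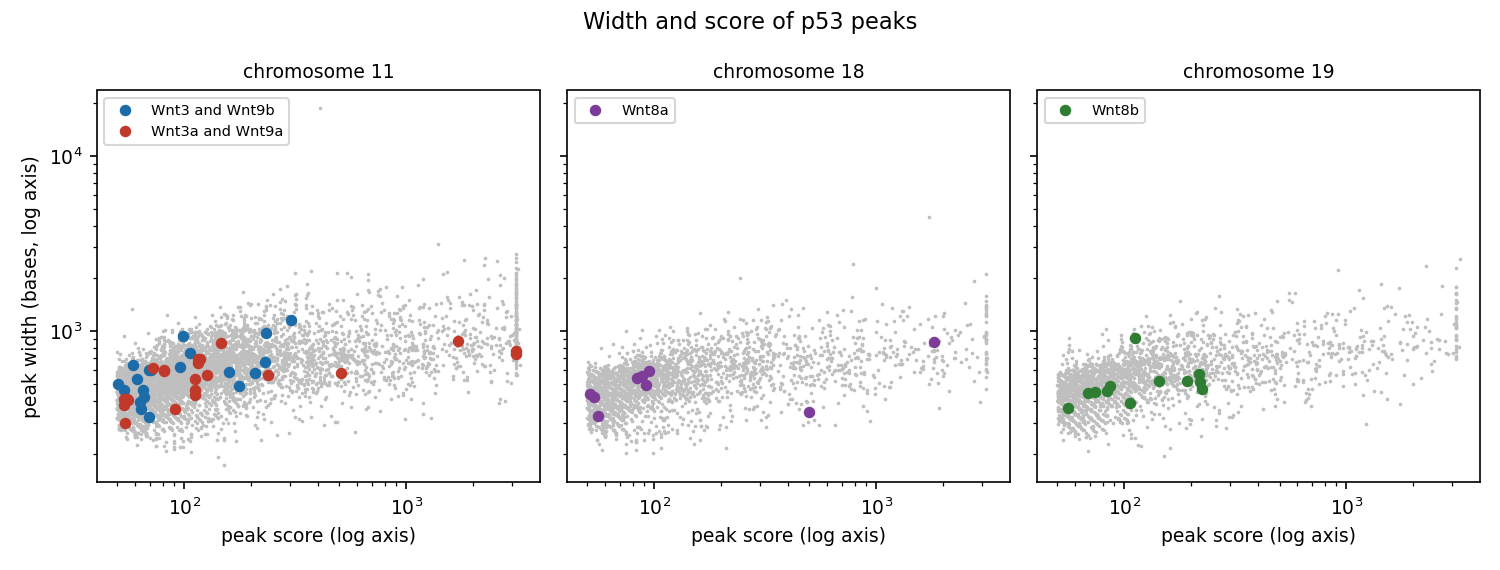
Width in bases against score (both log axes) of every p53 peak on chromosomes 11, 18 and 19 (grey) and of the peaks in the Wnt windows (coloured). The member of score 497.05 and 344 bases at Wnt8a lies at the lower edge of the grey points, and both members of score 3100 lie in the lower part of their column.

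p53 peaks were denser in all 4 windows than in the rest of their chromosomes. Wnt3-Wnt9b had 133 peaks per Mb against 61.1 on the rest of chromosome 11, a ratio of 2.18 (exact conditional 95% interval 1.33 to 3.37). Wnt3a-Wnt9a had 157 per Mb, a ratio of 2.57 (1.61 to 3.90). Wnt8a had 129 per Mb against 32.1 on chromosome 18, a ratio of 4.0 (1.83 to 7.60), and Wnt8b had 150 per Mb against 45.1 on chromosome 19, a ratio of 3.33 (1.72 to 5.82). These intervals cover the counting of peaks only and treat peaks as independent, which close peaks are not. The windows were chosen with earlier results of these data known, so the ratios are a description and not a test.

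Windows as dense as these occurred elsewhere on each chromosome. As many peaks as at Wnt3-Wnt9b were found in 13.1% of the windows of the same length on chromosome 11, and as many as at Wnt3a-Wnt9a in 8.02%. The shares were 4.16% for Wnt8a on chromosome 18 and 5.09% for Wnt8b on chromosome 19. The surroundings were dense as well. Set against 1 Mb on each side, the ratio was 1.42 at Wnt3-Wnt9b (exact conditional 95% interval 0.847 to 2.25), 1.51 at Wnt3a-Wnt9a (0.927 to 2.35), 2.26 at Wnt8a (1.01 to 4.43) and 1.83 at Wnt8b (0.926 to 3.28). Equal density lies inside these intervals at all windows but Wnt8a, where the lower limit was barely above it. These intervals also treat peaks as independent, and 6 of the 9 Wnt8a peaks lay in a single run. A higher density than in the surroundings was therefore not established at any of the windows. With only scores of 100 or more counted, the interval included equal density at Wnt3-Wnt9b (1.85, 0.741 to 3.81) and at Wnt8a (2.09, 0.252 to 7.56, from 2 peaks). The Wnt8a ratio was 2.56 (1.4 to 4.31) when the window was widened by 50 kb on each side.

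**Figure D3:**
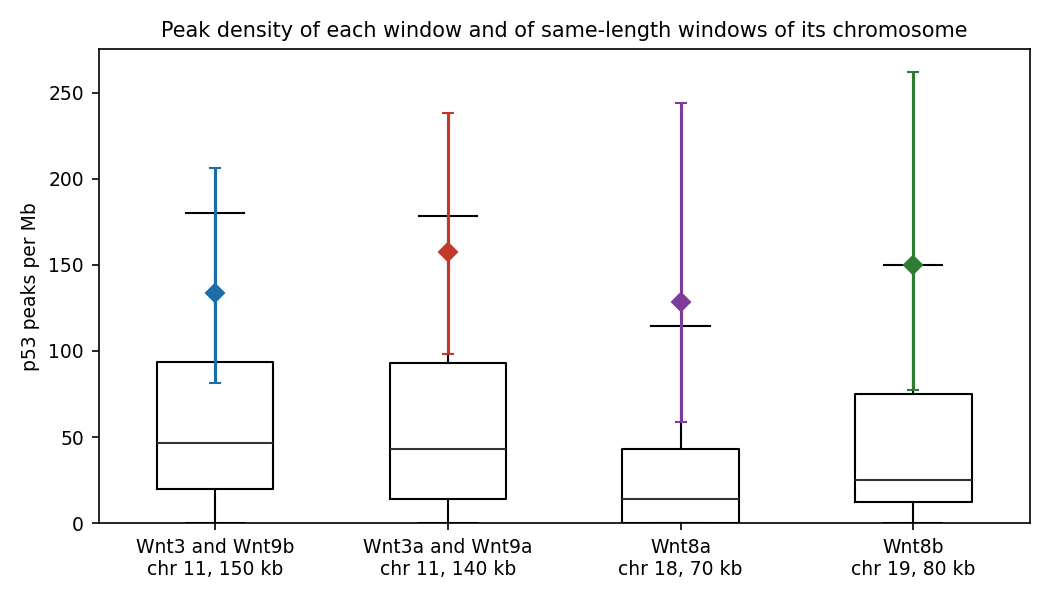
p53 peaks per Mb in each Wnt window (diamonds, with exact 95% Poisson intervals) and in all windows of the same length on its chromosome (boxes: quartiles and median; whiskers: 5th to 95th percentile). All 4 diamonds, from 129 to 157 per Mb, lie above their boxes, and those at Wnt3-Wnt9b and Wnt3a-Wnt9a lie below the upper whisker.

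Between the windows themselves, densities were not distinguishable. The ratio of densities in the 6 pairs of windows ran from 0.848 (Wnt3-Wnt9b over Wnt3a-Wnt9a, 95% interval 0.439 to 1.63) to 1.22 (Wnt3a-Wnt9a over Wnt8a, 0.541 to 3.02), and all 6 intervals included equal density. Scaled to the density of each window's own chromosome, the same ratios ran from 0.546 (Wnt3-Wnt9b over Wnt8a, which was 1.04 unscaled) to 1.2 (Wnt8a over Wnt8b, 0.857 unscaled), so the order of these pairs turns with the scaling. With 9 to 22 peaks a window, such intervals leave room for sizeable differences and do not show that the densities are alike. Peaks covered 8.03% of the bases at Wnt3-Wnt9b, 8.92% at Wnt3a-Wnt9a, 6.54% at Wnt8a and 7.61% at Wnt8b. The rest of the chromosomes was covered to 3.56%, 1.74% and 2.54% (chromosomes 11, 18 and 19).

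Inside the windows short gaps between peaks were mixed with wide empty stretches. Whether gaps were more uneven than at random positions of equal density was not tested. The median gap from the end of a peak to the start of the next was 3100 bases at Wnt3-Wnt9b, 1863 at Wnt3a-Wnt9a, 2041.5 at Wnt8a and 3910 at Wnt8b. The rest of the chromosome had a median gap of 6133 bases for Wnt3-Wnt9b, 6148 for Wnt3a-Wnt9a, 11306 for Wnt8a and 7848 for Wnt8b. Shorter gaps go with higher density, so these values are not separate evidence. The next peak was within 5 kb for 15 of 21 gaps at Wnt3a-Wnt9a (71.4%, against 45.1% on the rest of chromosome 11) and for 6 of 8 at Wnt8a (75%, against 30.0% on the rest of chromosome 18). It was so for 11 of 19 gaps at Wnt3-Wnt9b (57.9%) and 6 of 11 at Wnt8b (54.5%, against 38.4% on the rest of chromosome 19). At 1 kb the shares were 28.6% at Wnt3a-Wnt9a and 21.1% at Wnt3-Wnt9b, against 16.0% on the rest of chromosome 11. They were 25% at Wnt8a (against 10.5%) and 9.09% at Wnt8b (against 12.6%), from 2 and 1 gaps.

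**Figure D4:**
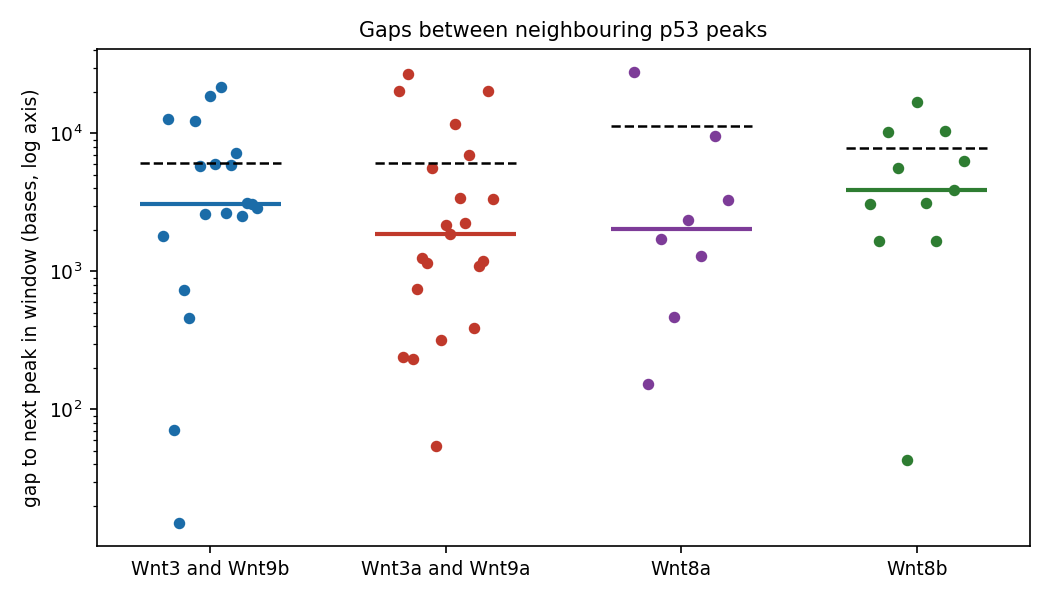
Gaps in bases (log axis) from each p53 peak to the next inside each Wnt window, with the median of the window (solid line) and of the rest of its chromosome (dashed line). Each window has a solid line below its dashed line, and single gaps range from 15 to 27928 bases.

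The tightest run was at Wnt3-Wnt9b. There 5 peaks lay between 103581817 and 103586057, with gaps of 71, 15, 727 and 459 bases and scores of 53.70, 98.76, 159.25, 65.26 and 61.60. The gap of 15 bases was the smallest among the members, and the 5 peaks covered 2969 of 4241 bases. On chromosome 11, 1.32% of peaks were in such a run of 5 or more with gaps of at most 1 kb. None of the 5 was strong, whereas the run at Wnt8a, joined at gaps of at most 5 kb, held a strong peak. With gaps of at most 1 kb the strong Wnt8a peak was in a run of only 2. The 5 last peaks of the Wnt3-Wnt9b window were joined by gaps of 2514 to 3111 bases over 14.4 kb, with scores from 50.16 to 106.37. At Wnt3a-Wnt9a, runs of 5 peaks with gaps of at most 5 kb lay at 59091455 to 59097483, which includes the first peak of score 3100, and at 59103058 to 59109950, where the highest score was 115.25. Runs of 5 or more at this distance held 22.0% of the peaks of chromosome 11.

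The closest pairs elsewhere were 54 bases apart at Wnt3a-Wnt9a (59103464 to 59103519) and 43 bases apart at Wnt8b (44568287 to 44568331), where the second peak of the pair was the strongest of the window. The widest empty stretch was 27928 bases at Wnt8a, from the first peak to the run, or 39.9% of the window. It was 26967 bases at Wnt3a-Wnt9a, ending at the peak that precedes the first of score 3100, 21698 bases at Wnt3-Wnt9b and 16790 bases at Wnt8b. At the edges, the last member at Wnt3a-Wnt9a (score 53.41) was followed 4041 bases later by a peak of score 77.38 whose midpoint lay 0.086 kb beyond the window. The first peaks outside the Wnt3-Wnt9b window scored 55.30 and 52.13, and those outside the Wnt8b window 155.73 and 53.57, so the Wnt8a window alone had a peak of score 1000 or more as its nearest outside neighbour.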

How the data were processed

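p53 ChIP and input DNA, 1 library each, were assigned to groups by their titles. The authors deposited 1 list of peaks with a position and a score per peak; the list has no header. Tools given in the submitters' processing notes are MACS 1.4.1 and CASAVA 1.8.2, with build mm9. The depth is unknown, with the aligner, read totals and settings not given in the sources used here. The score was deposited as the caller wrote it. Its lowest value is 50; this caller writes a multiple of the negative log10 of a p-value. Positions are printed counted from 1.

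Members were peaks with midpoints inside the windows, both ends included. The windows, the members and the lists were chosen with earlier results of these data known. Peaks named by position were all those of score 1000 or more in a window or else the 3 highest, with the widest and the lowest-scoring peak, the closest pair and the widest gap. Others named beside these were chosen after their values were seen, as were the 4-letter cores and the runs of peaks.

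The rest of a chromosome means its length from first to last peak without the window. For density ratios the exact conditional 95% interval of a ratio of Poisson rates was used, and for shares the exact Clopper-Pearson interval. Both treat peaks as independent, which close peaks are not. The ratio interval was tested on simulated independent Poisson counts, and gaps and merging on a small made-up list. These tests do not cover peaks that cluster. Peaks of 1 list are not replicates, so no p-value is given. Promoters (RefSeq, GRCm38.p6) were searched without the 50 bases after the start. Python 3.11.15, NumPy 2.4.6, pandas 2.3.3, SciPy 1.17.1 and Matplotlib 3.10.9 were used.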

Additional observations from a re-analysis of the deposited data

How the results depend on the processing

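The density ratio stayed above 1 in all 4 windows under all 16 alternatives run, from 1.42 (Wnt3-Wnt9b against 1 Mb on each side) to 4.46 (Wnt8b at scores of 100 or more), but its exact 95% interval excluded equal density in only 11 of them. The 5 whose interval included it were Wnt3-Wnt9b, Wnt3a-Wnt9a and Wnt8b against 1 Mb on each side, and Wnt3-Wnt9b and Wnt8a at scores of 100 or more. Of the 16 ratios, 1 fell outside the interval of the reported value: Wnt3a-Wnt9a against 1 Mb on each side, at 1.51. With a score minimum of 100 the peak counts were 7 at Wnt3-Wnt9b, 13 at Wnt3a-Wnt9a, 2 at Wnt8a and 7 at Wnt8b, fewer by construction. Merging peaks up to 1 kb apart left 16, 16, 7 and 11 peaks, and counting any overlap with the window gave 20, 23, 9 and 12. Of 24 alternatives for median width, score and gap, 6 left the quartile range of the window, all at the score minimum of 100. This minimum by construction raises the median score and lengthens gaps, so the 2 scores and 2 gaps among them say nothing of stability. The other 2 were median widths, which rose from 578.5 to 668 bases at Wnt3-Wnt9b and from 491 to 607.5 at Wnt8a (2 peaks). The median widths of these windows therefore depended on the score minimum. Strong peaks were also wider on the chromosomes as a whole. At scores of 1000 or more the median was 876 bases on chromosome 11, against 524 on the rest of that chromosome. On chromosome 18 it was 765 against 494. Whether the change at these windows was larger than elsewhere was not tested. The counts, of at most 22 peaks, and the unknown read depth limit every comparison. No paired analysis was possible because ChIP and input have 1 library each, and no replicate could be left out for the same reason.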
